A study of Mus musculus with 4 samples.

Results

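The genes described here regulate the midbrain, the isthmus at the border of midbrain and hindbrain, and the roof plate of the neural tube. They comprise the Engrailed genes En1 and En2, the paired-box genes Pax2, Pax5, Pax7 and Pax8, the homeobox gene Gbx2, the LIM homeobox genes Lmx1a and Lmx1b, and Meis2. Members were all probe sets that the platform annotation gives to 1 of these 10 genes alone. This gave 16 probe sets of 9 genes, of 45101 probe sets and 18194 named genes on the array. No probe set in the annotation used here names Pax2 alone, and Pax2 was not analysed here.

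RNA was measured on 4 Affymetrix Mouse Genome arrays, 2 for Rax::GFP- cells and 2 for Rax::GFP+ cells. Both groups came from 1 mouse embryonic stem cell (ESC) line that carries a GFP reporter of Rax, a homeobox gene of the rostral forebrain and eye field. The ESCs were grown without added growth factors as SFEBq aggregates (serum-free floating aggregates formed by quick reaggregation), dissociated at day 4.5 and sorted for GFP by FACS. The study's methods describe biological duplicates, each from pooled aggregates, so a value averages many aggregates and all cell types of its gate. The GFP- gate holds every cell without the reporter signal, whatever its type, and neither group received a treatment.

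In the embryo, the isthmic organizer forms where the Otx2 domain of the forebrain and midbrain meets the Gbx2 domain of the hindbrain, and it secretes Fgf8 and Wnt1. Engrailed genes and Pax2, Pax5 and Pax8 are switched on in the midbrain and anterior hindbrain around it, Lmx1b is needed to keep its signals on, and Pax7 marks the dorsal midbrain. Lmx1a and Lmx1b act in the roof plate and in the precursors of midbrain dopamine neurons, while Meis2, a TALE homeodomain factor and DNA-binding partner of other homeodomain factors, takes part in the development of the midbrain tectum, the forebrain and the eye.

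The 250 bases before the transcription start are shown for Lmx1b and Meis2, which passed the test in opposite directions, and for En1, whose window held a motif match. They are RefSeq sequence of build GRCm38.p6, read 5′ to 3′ toward the gene: En1 from chr1:120602237-120602486 (plus strand), Lmx1b from chr2:33641099-33641348 (minus strand) and Meis2 from chr2:116064620-116064869 (minus strand).
En1: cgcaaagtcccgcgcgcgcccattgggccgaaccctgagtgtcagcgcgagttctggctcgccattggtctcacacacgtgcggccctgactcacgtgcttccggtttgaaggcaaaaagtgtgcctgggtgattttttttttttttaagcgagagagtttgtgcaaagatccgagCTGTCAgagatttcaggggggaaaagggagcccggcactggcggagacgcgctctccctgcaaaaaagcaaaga
Lmx1b: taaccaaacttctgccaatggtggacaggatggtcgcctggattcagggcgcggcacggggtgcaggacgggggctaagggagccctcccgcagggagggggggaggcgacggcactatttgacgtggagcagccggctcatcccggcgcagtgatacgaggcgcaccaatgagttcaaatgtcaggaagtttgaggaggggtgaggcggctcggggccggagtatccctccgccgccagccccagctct
Meis2: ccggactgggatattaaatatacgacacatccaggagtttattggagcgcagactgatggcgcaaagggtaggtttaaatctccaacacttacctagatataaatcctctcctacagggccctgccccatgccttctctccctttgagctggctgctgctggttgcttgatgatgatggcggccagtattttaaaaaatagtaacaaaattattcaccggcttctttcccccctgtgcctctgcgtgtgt
Capitals in the En1 sequence mark CTGTCA, which is the Meis motif TGACAG read on the opposite strand and starts 74 bases before the transcription start. It was the only match among 4 motifs searched on both strands in the windows of the 8 members with a sequence. The motifs were the Meis motif TGACAG, found in 15.9% of 32851 promoter windows of the same length, the Otx motif TAATCC (6.25%), the homeodomain motif TAATTA (4.84%) and the TCF/LEF motif ATCAAAG of Wnt signaling (3.21%). The Otx and homeodomain motifs share their opening TAAT, but a match of one is never a match of the other. The GC content was 56.0% for En1, 65.2% for Lmx1b and 47.6% for Meis2, against a median of 52.4% over all windows. A match describes the letters in a window and is not a measured binding site.

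Most of the regulators lay near background in both groups. Meis2 and Pax5 were above background in Rax::GFP- and in Rax::GFP+ cells, and Lmx1b was above background in Rax::GFP- cells and just under the limit in Rax::GFP+ cells. The other 6 genes measured (En1, En2, Pax7, Pax8, Gbx2 and Lmx1a) had no probe set above background in either group. Values are log2 expression values made by RMA (robust multi-array average). RMA puts the probe intensities of the arrays on a common distribution before it summarises them by probe set. Background was set from 78 probe sets of olfactory and vomeronasal receptor genes, which early neural cells are not known to use. A probe set was called above background in a group when both arrays exceeded the 95th percentile of these receptors on the same array (5.33 and 5.43 in GFP- cells, 5.23 and 5.34 in GFP+ cells), and near background otherwise. With the 90th percentile as the limit, Lmx1b was above background in GFP+ cells too, and with each of 3 stricter limits Pax5 was near background in both groups. By the 95th percentile 10 of the 16 probe sets were near background in both groups, 4 were above it in both, 1 was above it in GFP- cells alone and 1 in GFP+ cells alone. Probe sets differ in how brightly they hybridise, so near background does not show that a gene was off, and levels of different probe sets are not compared.

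Lmx1b and Pax7 were higher in Rax::GFP- cells at 1 probe set each, and Meis2 was lower at all 4 of its probe sets. The Pax7 probe set was near background in both groups. Differences are GFP- minus GFP+ on the log2 scale, tested with limma's moderated test. Every probe set on the array entered the Benjamini-Hochberg adjustment, and 0.05 was the threshold. In GFP- cells, 2 of the 16 member probe sets were higher and 4 lower (37.5%), where 7.47% of all probe sets passed, 3.64% higher and 3.82% lower. Outside Meis2, 2 of 12 probe sets passed, both higher (16.7%). The median difference was 0.19 over the member probe sets and 0.03 over all probe sets. Over the 78 receptor probe sets used for background it was 0.08, with 0 called. The groups did not overlap at 12 of the 16 probe sets (75.0%), 8 of them higher in GFP- cells, against 57.3% of all probe sets. The methods call the arrays biological duplicates, but no source says how far back the cultures were separate, so p-values measure only the spread between these samples. The number of arrays limits the precision: the smallest p that 2 arrays against 2 allow in an exact permutation test is 0.333.

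**Figure D1:**
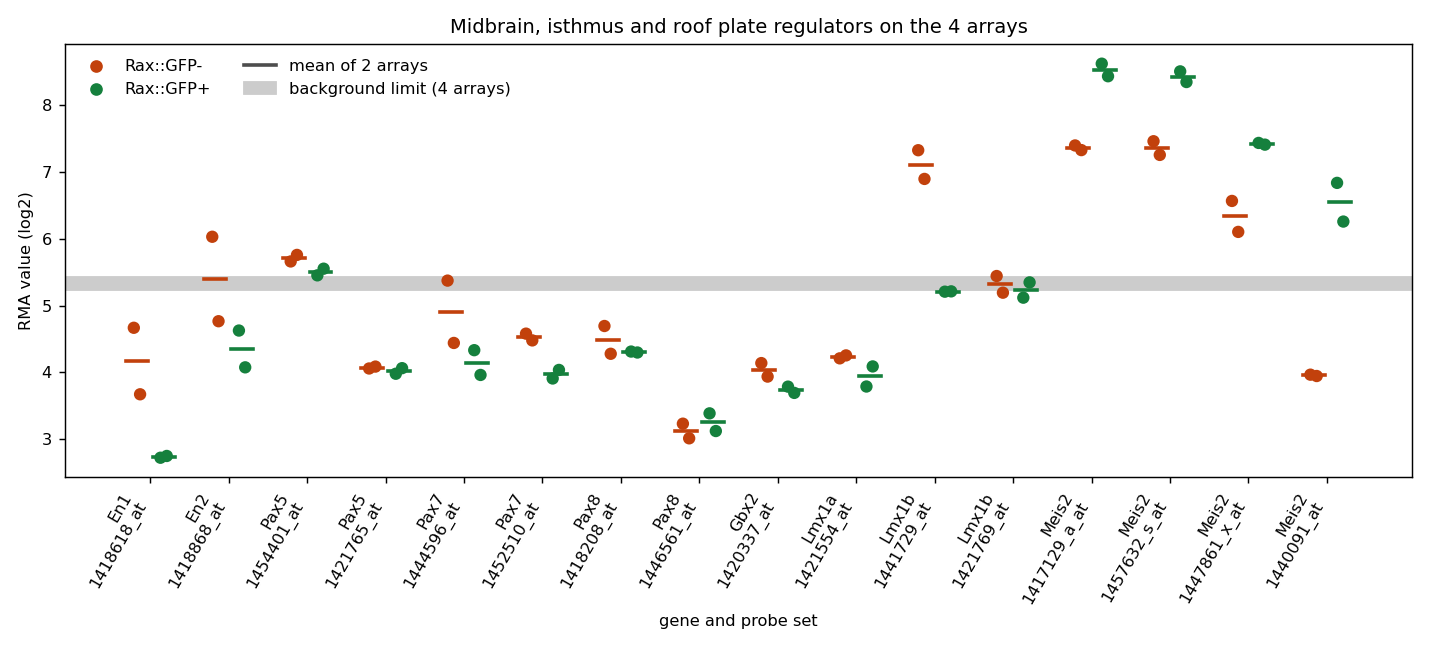
RMA values (log2) of the 16 member probe sets on the 2 Rax::GFP- arrays (orange) and the 2 Rax::GFP+ arrays (green), with the mean of each group as a bar and the range of the background limits over the 4 arrays in grey. The 4 Meis2 probe sets lie lower in GFP- cells and Lmx1b 1441729_at lies higher. At 10 probe sets neither group has both arrays above the limit, although single arrays of some exceed it.

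**Figure D2:**
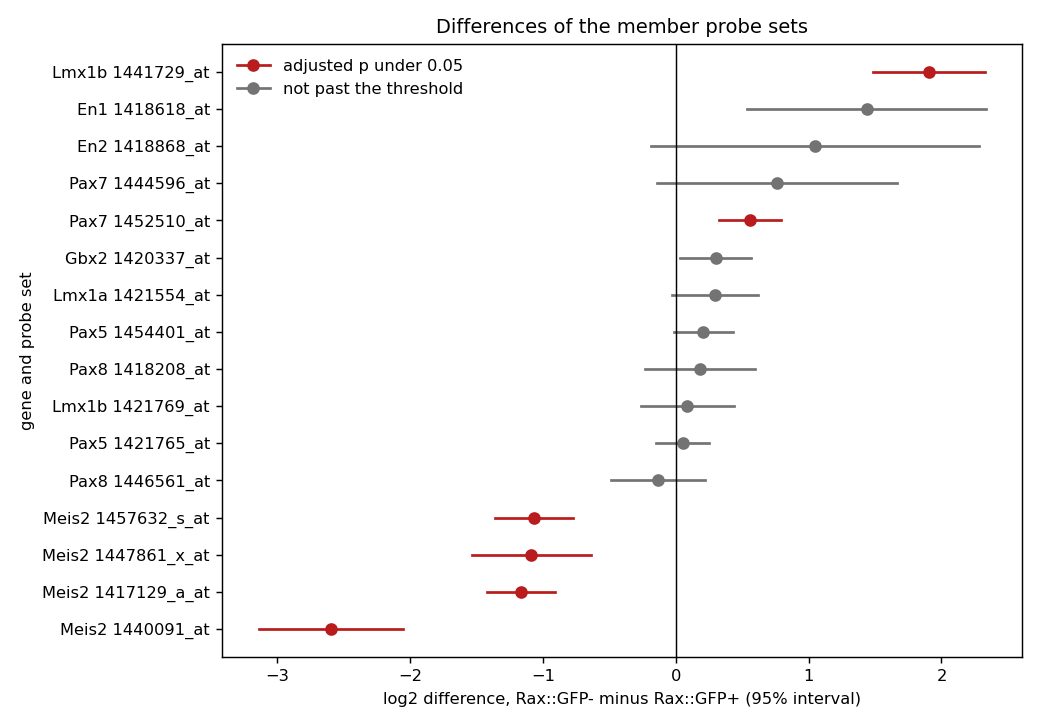
Log2 difference of each member probe set, Rax::GFP- minus Rax::GFP+, with its 95% confidence interval from limma. Red marks the 6 probe sets with an adjusted p under 0.05, of which 2 are higher and 4 are lower in GFP- cells.

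Lmx1b was higher in Rax::GFP- cells at 1 of its 2 probe sets. Its probe set 1441729_at had log2 values of 7.33 and 6.90 on the Rax::GFP- arrays, against 5.21 and 5.21 on the Rax::GFP+ arrays. Both GFP- arrays were above background and above both GFP+ arrays, which were near background. The difference was 1.90 (95% confidence interval 1.48 to 2.33, standard error 0.16, adjusted p = 0.0119 from limma). Because the GFP+ level is only bounded by the background limit, the fold at this probe set is given against that limit. The GFP- mean lay 3.56-fold above it, a point estimate without the spread between arrays. As these are sorted bulk samples, more cells that express Lmx1b and more Lmx1b RNA per cell cannot be told apart, and this holds for every difference given here.

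The other Lmx1b probe set, 1421769_at, did not show this difference. It read 5.44 and 5.19 in GFP- cells, against 5.12 and 5.35 in GFP+ cells, so the groups overlapped. GFP- replicate 1 and GFP+ replicate 2 exceeded their background limits. Neither group had both arrays above the limit, so both were near background. Its difference was 0.09 (95% confidence interval -0.27 to 0.44, adjusted p = 0.741 from limma). The intervals of the 2 Lmx1b probe sets do not meet, and which transcripts each detects was not examined. With replicate number as a block in the fit, neither 1441729_at (adjusted p = 0.0678 from limma) nor any other probe set of the array passed. The call at 1441729_at was lost without GFP+ replicate 1 (adjusted p = 0.0561 from limma) and without GFP- replicate 1 or GFP- replicate 2 (0.0937 and 0.105), while the difference stayed between 1.69 and 2.12. Over all alternatives run, its adjusted p lay between 0.00152 and 0.105.

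Lmx1a, the paralog that acts with Lmx1b in the roof plate and in dopamine neuron precursors, was near background in both groups. Its probe set 1421554_at read 4.21 and 4.25 in GFP- cells, against 3.79 and 4.09 in GFP+ cells. The GFP- arrays lay above the GFP+ arrays by a small margin, and the difference of 0.29 did not pass (95% confidence interval -0.03 to 0.62, adjusted p = 0.222 from limma).

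En1, the Engrailed gene that is switched on before En2 in the embryo, had a positive difference that did not pass. Its probe set 1418618_at read 4.67 and 3.67 on the Rax::GFP- arrays, against 2.72 and 2.74 on the Rax::GFP+ arrays. All 4 values were near background, both GFP- arrays lay above both GFP+ arrays, and the GFP- arrays lay farther apart than the GFP+ arrays. The GFP- mean lay above 70.5% of the receptor probe sets used for background, against 12.8% for the GFP+ mean. The difference was 1.44 (standard error 0.34, 95% confidence interval 0.54 to 2.34, adjusted p = 0.0803 from limma). It was 0.94 without GFP- replicate 1 and did not pass, and likewise 1.94 without GFP- replicate 2. En1 passed with an intensity trend in the variance (adjusted p = 0.0277 from limma) and with Storey's q-value (0.0463). It also passed in a fit on the mean of each gene's probe sets (adjusted p = 0.0432 from limma), although with 1 probe set its values were unchanged there. With replicate number as a block it did not pass (adjusted p = 0.145 from limma).

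En2, which overlaps with En1 in function, ran the same way with wider spread. Its probe set 1418868_at read 6.03 and 4.77 in GFP- cells, against 4.63 and 4.07 in GFP+ cells. The values of the groups were separate, but the lower GFP- array was only slightly above the higher GFP+ array, and GFP- replicate 1 was the only array above its background limit. The difference of 1.05 did not pass (95% confidence interval -0.18 to 2.28, adjusted p = 0.244 from limma). It was 0.42 without GFP- replicate 1 and 1.68 without GFP- replicate 2.

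Among the Pax genes measured, only Pax7 passed, at 1 of 2 probe sets. Its probe set 1452510_at read 4.58 and 4.48 in GFP- cells, against 3.91 and 4.03 in GFP+ cells, with all values near background. The arrays of each group lay close together and the groups did not overlap. The fit gave a difference of 0.56 with a standard error of 0.09 and an adjusted p of 0.0388 from limma. No fold change is given because both groups were near background. With replicate number as a block in the fit, 1452510_at did not pass (adjusted p = 0.121 from limma). The call was lost without any 1 of the 4 arrays, with adjusted p values that started at 0.0611 (GFP+ replicate 2 left out) and reached 0.218 (GFP- replicate 1 left out). The filter that kept log2 values of at least 5 on at least 2 arrays removed this probe set. Over the alternatives that kept it and all 4 arrays, the adjusted p ranged from 0.0224 to 0.121. In the fit on the mean of each gene's probe sets, Pax7 did not pass (adjusted p = 0.0696 from limma).

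The other Pax7 probe set, 1444596_at, read 5.37 and 4.44 in GFP- cells, against 4.33 and 3.96 in GFP+ cells. All GFP- values lay above the GFP+ values, and only GFP- replicate 1 exceeded its background limit. The difference of 0.76 did not pass (95% confidence interval -0.15 to 1.67, adjusted p = 0.248 from limma), and it was 0.29 without GFP- replicate 1 and 1.23 without GFP- replicate 2.

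Pax5, which maintains midbrain and hindbrain identity with Pax2 and is also the factor that commits B cells, was a little above background in both groups at 1454401_at. The values were 5.66 and 5.76 in GFP- cells, against 5.45 and 5.55 in GFP+ cells. All GFP- values lay above the GFP+ values, but the difference of 0.21 did not pass (95% confidence interval -0.01 to 0.43, adjusted p = 0.209 from limma). The Pax5 values lay below the median of each array, which ranged from 5.84 to 5.89, and Pax5 was near background under the stricter limits. The second Pax5 probe set, 1421765_at, was near background at 4.06 and 4.08 in GFP- cells, against 3.98 and 4.06 in GFP+ cells, where the groups overlapped narrowly (difference 0.05, adjusted p = 0.724 from limma).

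Pax8, which also acts in the otic placode, thyroid and kidney, was near background at both probe sets, and its groups overlapped at both. Probe set 1418208_at read 4.69 and 4.28 in GFP- cells, against 4.31 and 4.30 in GFP+ cells, a difference of 0.18 (95% confidence interval -0.23 to 0.59, adjusted p = 0.521 from limma). Probe set 1446561_at read 3.23 and 3.01 in GFP- cells, against 3.38 and 3.12 in GFP+ cells, and was the only probe set outside Meis2 with a negative difference (-0.13, adjusted p = 0.593 from limma).

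Gbx2, the hindbrain-side factor of the isthmic border that is also active in mouse ESCs, was near background throughout. Its probe set 1420337_at read 4.14 and 3.94 in GFP- cells, against 3.78 and 3.69 in GFP+ cells. All GFP- values lay above the GFP+ values and the difference was 0.30 (95% confidence interval 0.03 to 0.57). With an adjusted p of 0.158 from limma it did not pass. Gbx2 and En1 were the 2 member genes with an unadjusted p under 0.05 that did not pass after adjustment.

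Meis2 was the only member expressed above background and lower in Rax::GFP- cells. Probe set 1417129_a_at read 7.40 and 7.33 in GFP- cells, against 8.63 and 8.44 in GFP+ cells. The replicates lay close together and the groups were well apart, and the level was 2.24-fold lower (difference -1.17 with a standard error of 0.10, adjusted p = 0.0116 from limma). Probe set 1457632_s_at read 7.46 and 7.26 in GFP- cells, against 8.51 and 8.35 in GFP+ cells, and was 2.10-fold lower (difference -1.07, standard error 0.11, adjusted p = 0.0172 from limma). Probe set 1447861_x_at read 6.57 and 6.10 in GFP- cells, against 7.44 and 7.41 in GFP+ cells, and was lower (difference -1.09, standard error 0.17, adjusted p = 0.0378 from limma). At these 3 probe sets every array of both groups was above background.

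The fourth Meis2 probe set, 1440091_at, passed the background limit in GFP+ cells alone. It read 3.96 and 3.94 in GFP- cells, against 6.84 and 6.26 in GFP+ cells. The GFP- arrays were near background, where 62.8% of the receptor probe sets lay below their mean, and both GFP+ arrays were above it. The difference was -2.60 (standard error 0.21, 95% confidence interval -3.14 to -2.05, adjusted p = 0.0109 from limma). Measured by group means against the background limit, this probe set was at least 2.24-fold lower in GFP- cells, which leaves out the spread between arrays. Its interval did not meet those of the other Meis2 probe sets, which ran from -1.54 at the lowest to -0.64 at the highest. The suffixes of the other Meis2 probe sets mark probes that the array's design took to match several transcripts or related sequences, so the 4 are not independent measurements of 1 transcript.

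The Meis2 calls depended on the arrays in different degrees. With replicate number as a block in the fit, none of them passed (adjusted p from 0.0622 to 0.102 from limma), nor did any other probe set of the array. Without GFP+ replicate 1, 1417129_a_at and 1440091_at passed (adjusted p = 0.0429 and 0.0339 from limma) while 1457632_s_at and 1447861_x_at did not (0.0679 and 0.136). Without GFP+ replicate 2, only 1447861_x_at was lost (0.0885). Without GFP- replicate 1 or GFP- replicate 2, no probe set of the whole array passed, so that loss is shared by every call and does not single out Meis2. The 4 differences stayed negative in every alternative run, and the adjusted p over the 4 probe sets ranged from 0.00116 to 0.136.

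For each member past the threshold, the genes with the nearest pattern were found by the distance between mean-centred log2 values over the 4 arrays. Closest to Meis2 1417129_a_at were Dpysl4, a member of the collapsin response mediator family (distance 0.03), Zbtb16, a zinc finger repressor (0.11), and Rnf138rt1 (0.11). Closest to Lmx1b 1441729_at were AU018091 (0.15), Tcl1, a co-activator of Akt that is active in mouse ESCs (0.19), and H2-Q2 (0.20). Closest to Pax7 1452510_at were Moxd1 (0.04), Tex45 (0.05) and Adcyap1r1, the receptor of the neuropeptide PACAP (0.05). With 4 arrays in 2 groups, these patterns are set mainly by the difference between the groups.

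The member values of the 2 Rax::GFP- arrays were unequal. GFP- replicate 1 exceeded GFP- replicate 2 at 13 of 16 member probe sets, and by over 0.4 at 6 of them (En1, En2, Pax7 1444596_at, Pax8 1418208_at, Lmx1b 1441729_at and Meis2 1447861_x_at). GFP- replicate 2 exceeded GFP- replicate 1 by over 0.4 at 0 members. Over all probe sets, GFP- replicate 1 was higher by over 0.4 at 1.95% and GFP- replicate 2 at 2.57%. The share of all probe sets at which GFP- replicate 1 was higher by any margin was not counted. Between the GFP+ arrays, replicate 1 minus replicate 2 at the members ranged from -0.30 at Lmx1a to 0.58 at Meis2 1440091_at. En2 also had a GFP+ gap over 0.4, at 0.55. Of 9 other midbrain and mid-hindbrain factors, 6 were higher in GFP- replicate 1 (median gap 0.11). The caudal neural markers Irx1, Irx2, Irx3 and Irx5 were also higher in GFP- replicate 1, at 4 of 4 genes with a median gap of 0.61, against a median gap of 0.08 between the GFP+ arrays. Primitive streak and mesoderm markers were higher in GFP- replicate 1 at 7 of 7 genes (median gap 0.35), while pluripotency markers were higher there at 5 of 11 (median gap -0.01). The part of these cell types in the gap at the members was not tested.

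**Figure D3:**
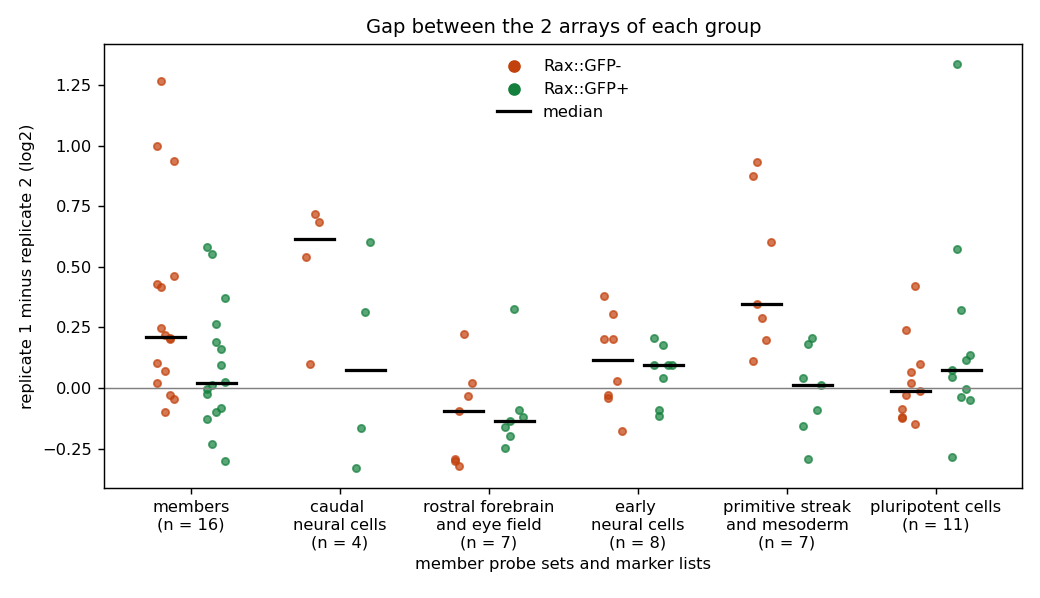
Replicate 1 minus replicate 2 on the log2 scale, within Rax::GFP- cells (orange) and within Rax::GFP+ cells (green), for the 16 member probe sets and for 5 marker lists, each point a probe set and each bar a median. In GFP- cells the points of the members, the caudal neural markers and the streak markers lie mostly above 0, at 13 of 16, 4 of 4 and 7 of 7.

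Genes that work with these regulators were counted on 9 lists, each gene by its brightest probe set. Of 74 different measured genes, 6 passed as higher in GFP- cells and 6 as lower (16.2%), where 8.02% of all genes passed, 5.4% higher and 2.63% lower. Of 7 isthmic organizer signals, 1 was higher and 0 were lower (median difference 0.33). Il17rd, a membrane inhibitor of Fgf signaling, read 9.06 and 9.02 in GFP- cells, against 8.48 and 8.36 in GFP+ cells (adjusted p = 0.027 from limma). Fgf8, the main isthmic ligand, read 6.53 and 5.99 in GFP- cells, against 5.50 and 5.37 in GFP+ cells. All GFP- values lay above the GFP+ values, but the difference of 0.82 did not pass (adjusted p = 0.0841 from limma). Spry1, an intracellular Fgf inhibitor, differed by -0.29 and did not pass (adjusted p = 0.0878 from limma). Wnt1, the isthmic Wnt ligand, read 5.52 and 5.65 in GFP- cells, against 4.92 and 5.47 in GFP+ cells, and its difference of 0.39 did not pass (adjusted p = 0.302 from limma).

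Of 9 other midbrain and mid-hindbrain factors, 0 were higher and 1 was lower (median -0.14). Pax6, which marks the forebrain side of the border with the midbrain, read 9.47 and 9.26 in GFP- cells, against 10.91 and 10.70 in GFP+ cells (difference -1.45, adjusted p = 0.0117 from limma). Otx2, the forebrain and midbrain factor that borders Gbx2 in the embryo, was high on every array and did not pass, at 12.50 and 12.55 in GFP- cells against 12.63 and 12.54 in GFP+ cells. Of 8 anterior hindbrain factors, none passed in either direction (median 0.02), and 1 was above background in GFP- cells, against 3 in GFP+ cells. With the filter on dim probe sets, and likewise with Storey's q-value, 1 of these factors passed as higher. Among them, Egr2, a hindbrain segment factor, read 5.38 and 4.85 in GFP- cells, against 7.60 and 5.46 in GFP+ cells, and Fgf3 differed by 0.34 (adjusted p = 0.069 from limma).

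Of 10 roof plate and dorsal midline genes, 3 were higher and 0 were lower (median 0.36). These were the ligand Bmp4 (difference 2.15, adjusted p = 0.0124 from limma), the Wnt enhancer Rspo1 (0.85, adjusted p = 0.0128) and the ligand Bmp6 (0.57, adjusted p = 0.0403), while Zic2 (0.34) and Bmp7 (0.06) did not pass. The count was 1 without GFP+ replicate 1, 2 without GFP+ replicate 2 and 0 without either GFP- array. Of 11 floor plate and ventral midbrain genes, Foxa2 was higher (2.10, adjusted p = 0.00733 from limma) and Foxa1 was lower (-1.41, adjusted p = 0.0262), and Nr4a2 and Nkx6-1 did not pass. Foxa2 is also on the endoderm list, where 5 of 10 markers were higher.

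Of 5 other Pax genes, only Pax6 passed, and Pax3 (difference 0.32, adjusted p = 0.132 from limma) and Pax9 (0.22, adjusted p = 0.256) did not. Of 9 TALE homeodomain genes related to Meis2, Tgif1 was higher (0.81, adjusted p = 0.0141 from limma) and Meis1 was lower (-1.01, adjusted p = 0.0308). Meis1, the paralog of Meis2, read 4.96 and 5.19 in GFP- cells, near background, against 6.23 and 5.94 in GFP+ cells, above it. Pbx3 and Tgif2 did not pass. Of 10 other LIM homeodomain genes, Lhx2, an eye field and forebrain factor, was lower (-1.80, adjusted p = 0.00551 from limma), and Lhx5 and Isl2 did not pass. Of 9 co-regulators, the Groucho-type repressor Tle4 (-0.46, adjusted p = 0.0367 from limma) and the LIM complex subunit Ssbp2 (-0.54, adjusted p = 0.0389) were lower, and Ssbp3 and Tle3 did not pass. With either GFP+ array left out, the isthmic signals and the co-regulators had 0 calls and the floor plate list had 0 lower calls, and the TALE list had 0 calls without GFP+ replicate 1 but 1 higher and 1 lower without GFP+ replicate 2.

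**Figure D4:**
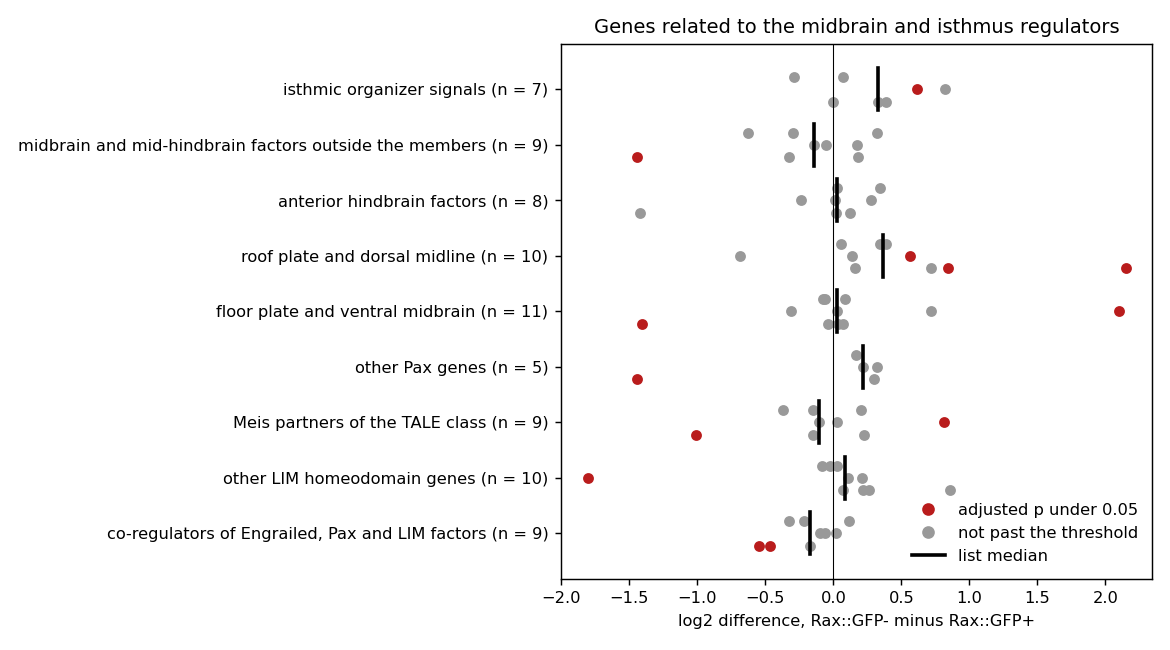
Log2 difference, Rax::GFP- minus Rax::GFP+, of the measured genes in 9 lists related to the midbrain and isthmus regulators, each point standing for the brightest probe set of a gene and each bar for the list median. Red points passed an adjusted p of 0.05: 6 genes are higher and 6 are lower in GFP- cells, with Pax6 drawn in both lists that hold it.

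The sorted groups differed in their defining markers, as far as these arrays show. Rax (difference -2.05) and Six3 (-0.85) were lower and Irx3 (2.59) was higher in GFP- cells, and Rax stayed above background there (8.58 and 8.88, against 10.70 and 10.86 in GFP+ cells). Of 7 rostral forebrain and eye field markers, 5 were lower in GFP- cells (median -1.48), and of 4 Irx genes, 4 were higher. The Irx calls were lost when some single arrays were left out. With replicate number as a block, 0 of them were called, as for every probe set of the array. Early neural markers were lower in GFP- cells at 4 of 8 genes (Sox1, Cdh2, Hes5 and Sox3) and higher at 1 (Fabp7), with a median difference of -0.44 and mean levels of 10.05 and 9.94 in GFP- cells, against 10.11 and 10.05 in GFP+ cells. Markers of some other cell types differed between the groups, where 5.4% of all genes passed as higher and 2.63% as lower in GFP- cells. Pluripotency markers were higher in GFP- cells at 9 of 11 genes (median 2.16), with mean levels of 8.70 and 8.67 in GFP- cells, against 6.67 and 6.47 in GFP+ cells. Endoderm markers were higher at 5 of 10 genes, with mean levels of 7.25 and 7.25 against 5.61 and 5.99 in GFP+ cells. Primitive streak and mesoderm markers were higher at 2 of 7 genes, and T, also on that list, was not measured. The mean levels of the 7 were 5.95 and 5.47 in GFP- cells, against 4.84 and 4.86 in GFP+ cells. Of the 7, 2 were above background in each group. Of other tissues that use Pax or Lmx1 genes, the kidney list had 1 higher and 1 lower of 7, the placode list 0 and 1 of 5, and the neural crest list 2 and 1 of 7. The part of these cell types in the differences of Lmx1b, Pax7 and Meis2 was not tested.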

How the data were processed

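RNA of FACS-sorted Rax::GFP- and Rax::GFP+ cells was hybridised to 4 arrays. The authors deposited log2 values made by RMA, 1 per probe set and array (R 2.13.0, per the submitters' processing notes). Since RMA equalises the distributions of probe intensities between arrays, these values do not show whether total RNA differed. Depth does not apply to arrays, whose number limits the precision.

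All 45101 probe sets, 64 control probe sets included, were fitted as 2 groups with limma 3.58.1 in R 4.3.3, without blocking on replicate number or filtering dim probe sets (2 residual and 2.52 prior degrees of freedom). The Benjamini-Hochberg adjustment covered every probe set. The fit was tested on simulated data with known changes. The platform annotation gave 1 gene symbol to 34958 probe sets and several to 932, which named no gene, while 9211 probe sets stayed unnamed here. Symbols of the 16 member probe sets matched the GRCm38.p6 gene table. Genes of other lists were taken by their most expressed probe set over all arrays.

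Members, lists and tests were chosen with earlier results of these data known. The genes named are all members, of each other list up to 3 that passed with the largest differences, up to 2 of the most expressed that did not pass, the 3 nearest patterns of each member past the threshold, and Rax, Six3 and Irx3. Wnt1 was added after its values were seen. Alternatives were a replicate block, array centring, quantile normalization, an intensity trend, array weights, a filter keeping log2 values of at least 5 on at least 2 arrays, Storey's q-value, the mean of a gene's probe sets, other background limits, and leaving out the control probe sets or each array in turn. Where a group was left with 1 array, that array was assumed to vary like the other group.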

Additional observations from a re-analysis of the deposited data

How the results depend on the processing

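The 6 member calls stayed under array centring, quantile normalization, array weights and without the control probe sets. The filter on dim probe sets kept 7 member probe sets, 5 of them called, and the intensity trend and Storey's q-value each gave 7 by adding En1. Over all probe sets, 3367 were called, against 6962 with the intensity trend and 6163 with Storey's q-value. Centring made 55.1% of the calls higher in GFP- cells, against 48.8% without it, and moved the median of all probe sets by under 0.1. Leaving out 1 array gave 0 to 4 member calls and 0 to 2978 calls over all probe sets. Without GFP- replicate 1 or GFP- replicate 2, limma called 0 probe sets, while 7704 and 7697 had an unadjusted p under 0.05, 7 and 11 of them members. Without GFP+ replicate 1, 2 members were called, and 58.3% of all calls were higher in GFP- cells, against 35.6% without GFP+ replicate 2. With the replicate block, limma called 0 probe sets and 0 members, with 11019 and 10 at an unadjusted p under 0.05. The numbers 1 and 2 are shared by both groups, but no label states that they pair samples. The methods describe pooled aggregates for each experiment, without naming which arrays share a pool. The deviations of same-numbered arrays correlated at -0.05 over all probe sets, which does not decide the pairing. By most expressed probe set, 2 member genes passed (Lmx1b and Meis2), against 3 with the mean of a gene's probe sets (En1, Lmx1b and Meis2). En1 has 1 probe set, so its values were the same in both fits. With the 90th percentile as the background limit, Lmx1b was added in GFP+ cells, giving 3 genes in each group. Pax5 was near background in both groups with the 99th percentile, a reference of keratin-associated, defensin and taste receptor genes, and the array median as limits, which left 2 genes above background in GFP- cells and 1 in GFP+ cells. Leaving out 1 array gave 3 to 5 genes in GFP- cells, with En2 and Pax7 added without GFP- replicate 2, and 2 to 3 in GFP+ cells, with Lmx1b added without GFP+ replicate 1. The causes of these changes were not tested.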
